A study of Mus musculus with 8 samples.

Results

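The genes described here encode the cap-binding complex eIF4F, paralogues of its subunits and its inhibitors, the 4E-BPs. They were measured in fully grown mouse oocytes shortly after nuclear envelope breakdown (NEBD). They were taken by gene name from a list of these parts, paralogues and inhibitors. All 10 were found among the 25574 genes of the table of FPKM values (fragments scaled to the length of the gene model and to the depth of the library). By role, they are the cap-binding proteins Eif4e, Eif4e1b and Eif4e2, the scaffolds Eif4g1, Eif4g2 and Eif4g3, the RNA helicases Eif4a1 and Eif4a2, and the 4E-BPs Eif4ebp1 and Eif4ebp2. The study asked which maternal transcripts were bound by polysomes at this stage. Its 8 RNA-seq libraries were 4 of non-polysomal RNA (the NP dataset) and 4 of polysomal RNA (the P dataset), which the study describes as biological replicates. Both datasets came from the same kind of oocyte: CD1 mice, 8 weeks old, were injected with 5 IU of pregnant mare serum gonadotropin, and oocytes were collected 46 h later, kept at the germinal vesicle stage with 100 µM IBMX, freed of cumulus cells, cultured without the inhibitor for 180 min and given 0.1 mg/ml cycloheximide for 10 min, which holds ribosomes on mRNA. Each sucrose gradient was loaded with a lysate of 200 oocytes and cut into 10 fractions. Fractions 2 to 5 made up the NP pool and fractions 6 to 10 the P pool, while the top fraction was left out of both. There was no library of unfractionated RNA, so each value describes a gene's part of one pool. More of a transcript in polysomes and less of others in the same pool cannot be told apart.

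The eIF4F complex recruits ribosomes to capped mRNA. Its subunit eIF4E holds the 5′ cap, eIF4G bridges eIF4E to the ribosome through other initiation factors, and the helicase eIF4A opens structure in the 5′ untranslated region. 4E-BPs take the place of eIF4G on eIF4E, and phosphorylation by mTOR releases them. Transcription is silent in the maturing oocyte, and control of translation stands in for it, partly through the length of the poly(A) tail.

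Reads were recovered from the steps between FPKM values, and the library size behind the scaling was 1299377 to 7594637 for the NP libraries, the lowest being NP replicate 2, and 2677946 to 4699328 for the P libraries. All 12 oocyte genes checked, Gdf9 and the zona pellucida genes among them, were above a mean of 0.1 FPKM, and their summed level was 6385 to 12389 FPKM in NP and 8863 to 30147 FPKM in P. The 12 granulosa and cumulus cell genes summed to 6.07 to 75.4 FPKM in NP and 3.26 to 62.6 FPKM in P, with Foxl2, Inhba, Has2 and Amhr2 at 0 in every library. Of these 12, 5 were above a mean of 0.1 FPKM, the highest being Cyp19a1 at a mean of 24.8 FPKM. The 6 theca and stroma genes reached at most 51.5 FPKM in NP and 17.9 in P, with Dcn and Col1a1 at 0 throughout. Of these 6, 3 were above a mean of 0.1 FPKM, the highest being Cyp11a1 at a mean of 8.48 FPKM. The 4 blood and immune cell genes in the table reached 35.9 FPKM in NP and were at 0 in all P libraries, with Ptprc, Lyz2 and Hba-a1 at 0 throughout. Of these 4, 1 was above a mean of 0.1 FPKM, Cd68 at a mean of 5.53 FPKM.

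None of the 10 genes was called different between P and NP at an adjusted p below 0.1 by limma, and their adjusted p values ran from 0.421 to 0.888. Limma's voom fit on recovered reads called 1 of them, Eif4ebp2, where 1.74% of 14291 genes were called higher in NP. In the limma fit on FPKM the background was low, since 3 of the 14292 genes tested, or 0.021%, passed the threshold. At an unadjusted p below 0.05, 1422 genes were counted, 9.47% of those tested being higher in NP and 0.476% higher in P. Of the 10 genes, 1 was at this level on the NP side, Eif4ebp2, and 0 on the P side. Log2 fold changes (P over NP, on FPKM + 1) were above 0 for 6 of the 10 genes, against 28.6% of all genes tested. Their median was 0.25, beside −0.39 for all genes. In none of the 10 genes were the 4 values of one dataset all above the 4 of the other, whereas 5.92% of the genes tested had all NP values above all P values and 0.357% the converse.

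**Figure D1:**
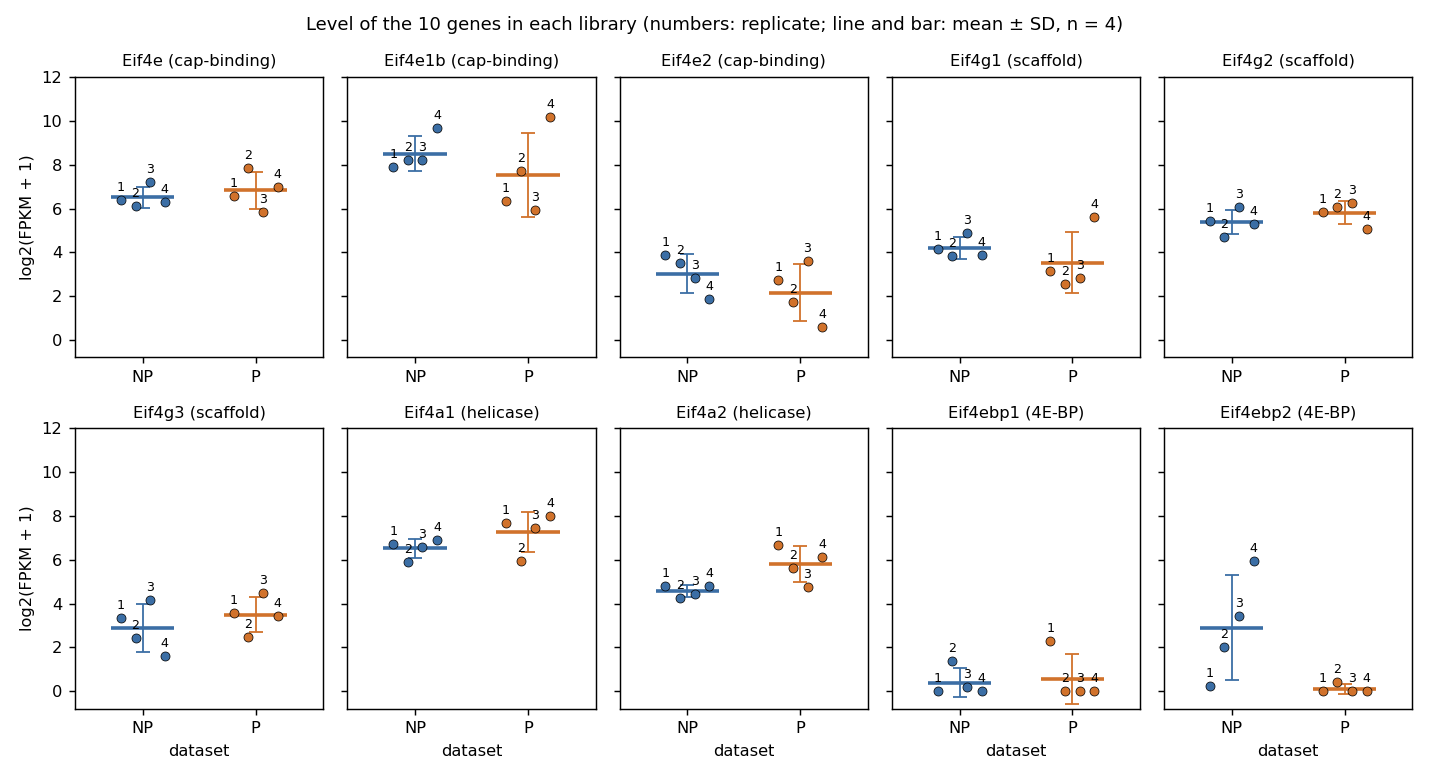
Level of each gene as log2(FPKM + 1) in the 4 NP libraries (blue) and the 4 P libraries (orange), with the replicate number beside each point and a line and bar for the mean ± SD. The points of both datasets overlap in all 10 panels, and Eif4ebp2 shows the widest spread within NP, from 0.175 to 59.8 FPKM.

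Eif4e1b, which encodes the eIF4E paralogue of oocytes and early embryos, had the highest mean level of the 10 genes in both datasets. The gene lies on chromosome 13 at 54783998 to 54788459 (GRCm38, plus strand). Its level was 240, 293, 292 and 825 FPKM in NP replicates 1 to 4 and 80.5, 209, 59.6 and 1162 FPKM in P replicates 1 to 4. Both libraries numbered 4 were the highest of their dataset, and the other P libraries were all below the NP range. In P, replicate 4 alone held 76.9% of the summed level. By median in P, Eif4a1 was higher, at 188 FPKM beside 145 FPKM for Eif4e1b. The mean of Eif4e1b was 413 ± 276 FPKM in NP and 378 ± 527 FPKM in P (SD, n = 4). Its log2 fold change was −0.96 (SE 0.83, 95% interval −2.74 to 0.83, adjusted p = 0.667). Without P replicate 4 it was −1.84 (limma adjusted p = 0.497). All NP values were then above all P values by construction, since the other P libraries were below the NP range. Scaling every library to one median turned the sign of Eif4e1b, to 0.38.

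Eif4e, the canonical cap-binding subunit (chromosome 3, 138526191 to 138557599, plus strand), was present in every library. It measured 82.9, 68.1, 149 and 78.2 FPKM in NP and 95.2, 230, 57.1 and 127 FPKM in P. The lowest and the highest values both belonged to P, so the NP range lay inside the P range. Its log2 fold change was 0.31 (SE 0.59, 95% interval −0.95 to 1.58), and without P replicate 2 it was −0.027.

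Eif4e2 encodes 4EHP, a cap-binding protein that does not join eIF4G and takes part in translational repression (chromosome 1, 87213914 to 87240488, plus strand). It was the lowest of the cap-binding genes in every library, with 13.9, 10.4, 6.05 and 2.69 FPKM in NP and 5.59, 2.29, 11.3 and 0.498 FPKM in P. The lowest of these rested on 10 recovered reads. In both datasets the library numbered 4 was the lowest, and the ranges overlapped over most of their length. The log2 fold change was −0.86 (SE 0.93, 95% interval −2.85 to 1.12), and with every library scaled to one median it was 0.13.

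Within the cap-binding genes Eif4e, Eif4e1b and Eif4e2, Eif4e1b made up 71.3%, 78.9%, 65.3% and 91.1% of the summed FPKM in NP and 44.4%, 47.4%, 46.5% and 90.1% in P. Eif4e1b was thus above Eif4e in all NP libraries, and close to it in P replicates 1 to 3. As a log2 ratio within a library, taken here and below on FPKM + 1, Eif4e1b over Eif4e was 1.52, 2.09, 0.96 and 3.38 in NP and −0.24, −0.13, 0.06 and 3.18 in P. The datasets overlapped only through P replicate 4, whose ratio was near that of NP replicate 4. The mean ratio was 1.99 ± 1.04 in NP and 0.72 ± 1.65 in P (SD, n = 4). The shares leave out Eif4e3, a further eIF4E family gene among the associated genes. Eif4e3 measured 22.0 to 98.2 FPKM in NP and 27.0 to 117 FPKM in P. In P replicate 3, its highest library, it was above both Eif4e and Eif4e1b.

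**Figure D2:**
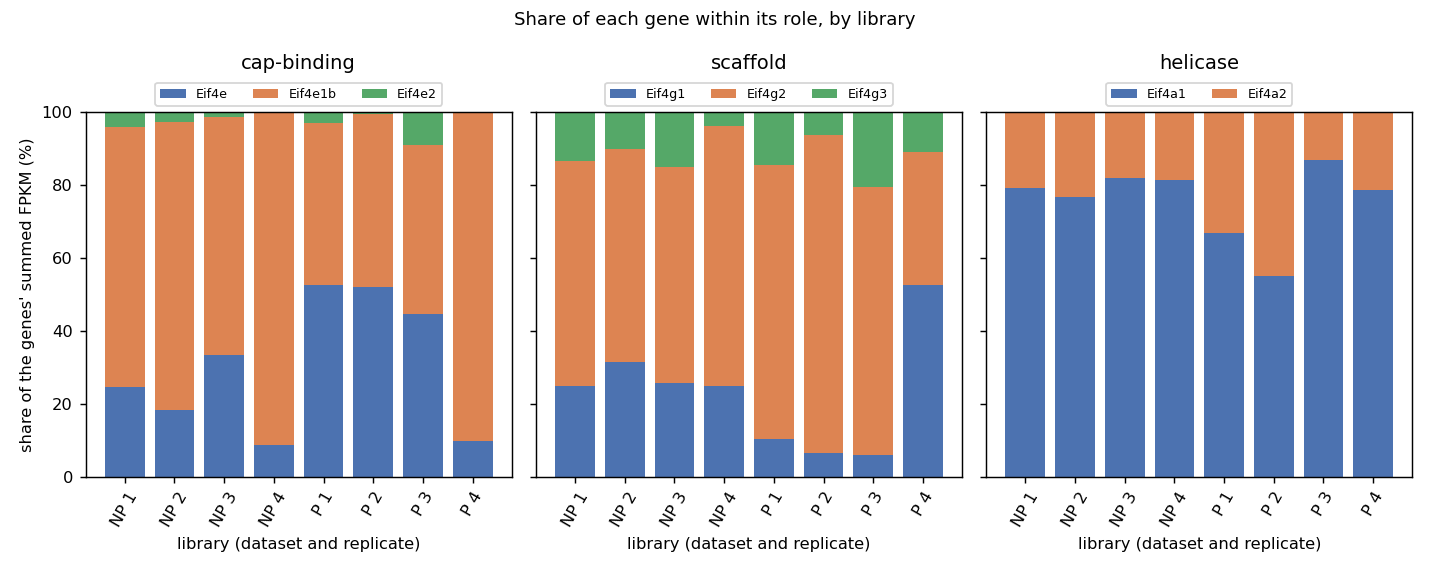
Share of each gene in the summed FPKM of its role (percent, stacked bars) for the cap-binding, scaffold and helicase genes in each of the 8 libraries. Eif4e3, a further eIF4E family gene, is not in the sums. P replicates 1 to 3 hold 44.4% to 47.4% Eif4e1b among the cap-binding genes, below the 65.3% to 91.1% of the NP libraries, and P replicate 4 holds 90.1%. P replicate 4 also has the largest share of Eif4g1, 52.7%, among the scaffold genes.

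Eif4g2 had the highest mean of the scaffold genes in both datasets. Its product, DAP5, lacks the part of eIF4G that binds eIF4E (chromosome 7, 111067985 to 111083030, minus strand). The level was 42.5, 25.0, 66.7 and 38.8 FPKM in NP and 56.4, 66.0, 76.0 and 32.8 FPKM in P. The ranges overlapped, with P replicate 4 below 3 of the NP libraries. For P over NP the log2 fold change was 0.43 (SE 0.59, 95% interval −0.84 to 1.69).

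Eif4g1, the main scaffold of eIF4F (chromosome 16, 20668313 to 20692884, plus strand), measured 17.0, 13.4, 28.7 and 13.6 FPKM in NP and 7.83, 4.92, 6.10 and 47.7 FPKM in P. Of the P values, 3 were below the whole NP range and P replicate 4 was above it. This library held 71.7% of the summed P level. Its log2 fold change was −0.66 (SE 0.80, 95% interval −2.38 to 1.07). It was −1.35 without P replicate 4 (limma adjusted p = 0.597) and 0.59 with every library scaled to one median. Without P replicate 4 all NP values lay above all P values by construction, since the other P values were below the NP range.

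Eif4g3, which encodes the second eIF4E-binding scaffold, eIF4GII, spans chromosome 4 from 137993022 to 138208508 (plus strand). It measured 9.15, 4.31, 16.8 and 2.08 FPKM in NP and 10.8, 4.65, 21.3 and 9.96 FPKM in P. Replicate 3 was the highest library in both datasets, and the ranges overlapped. Between the datasets the log2 fold change was 0.62 (SE 0.84, 95% interval −1.18 to 2.41).

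Between scaffolds, the log2 ratio of Eif4g2 over Eif4g1 was 1.27, 0.85, 1.19 and 1.45 in NP and 2.70, 3.50, 3.44 and −0.53 in P. The NP libraries thus kept within a narrow band, and P replicates 1 to 3 were all above it, while P replicate 4 was below it. The ratio of Eif4g3 over Eif4g1 was below 0 in all NP libraries, at −0.83, −1.44, −0.74 and −2.24, and was 0.42, −0.07, 1.65 and −2.15 in P. P replicates 1 to 3 lay above the NP band and P replicate 4 inside it. Both ratios share the denominator Eif4g1, so they are not separate observations.

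Of the 10 genes, Eif4a2 had the highest fold change and Eif4a1 the next, although Eif4g3 came before Eif4a1 after quantile normalization, in voom, without NP replicate 3 and without P replicate 4, and Eif4g2 also did in the last of these. Eif4a2 (chromosome 16, 23107444 to 23114136, plus strand) measured 27.3, 18.0, 20.8 and 26.7 FPKM in NP and 101, 48.9, 26.2 and 69.5 FPKM in P. Of the P libraries, 3 were above the NP range and P replicate 3 fell inside it. The mean was 23.2 ± 4.56 FPKM in NP and 61.3 ± 31.7 FPKM in P (SD, n = 4), a P/NP ratio of 2.64. The log2 fold change was 1.23 (SE 0.62, 95% interval −0.10 to 2.55, adjusted p = 0.526), or 1.62 above the median of all genes, and the 2-sided exact permutation test over the 70 assignments of libraries gave p = 0.0857, where the smallest possible p is 0.0286. Both tests took the libraries as unpaired, although the study pooled NP and P from fractions of the same gradients. By rank within each library, Eif4a2 stood at percentiles 71.7 to 78.8 of the genes tested in NP and 81.8 to 92.4 in P, so the ranks did not overlap, as for 4.62% of the genes tested with all P ranks above all NP ranks. Genes at 0 made up 8.64% to 18.9% of the genes tested in the NP libraries and 22.2% to 36.5% in the P libraries, and the part of this in the ranks was not tested. Exons of Eif4a2 overlap exons of Rfc4 on the opposite strand and several small nucleolar RNA genes on the same strand. Small nucleolar RNA genes on the same strand also overlap exons of Eif4a1, Eif4g1 and Eif4g2, and a microRNA gene those of Eif4e. The sources used here do not say whether the counting used strand. Rfc4 was at 5.31 to 18.6 FPKM in NP and 0 to 9.71 FPKM in P.

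Eif4a1, the more abundant helicase (chromosome 11, 69666936 to 69672423, minus strand), measured 104, 59.7, 94.7 and 117 FPKM in NP and 202, 59.8, 174 and 258 FPKM in P. Of the P libraries, 3 were above all NP libraries, and P replicate 2 was level with the lowest of them. The mean was 93.8 ± 24.6 FPKM in NP and 174 ± 83.5 FPKM in P (SD, n = 4), and the log2 fold change was 0.74 (SE 0.59, 95% interval −0.53 to 2.02). Eif4a1 exceeded Eif4a2 in all 8 libraries. The log2 ratio of Eif4a2 over Eif4a1 was −1.89, −1.67, −2.14 and −2.09 in NP and −0.997, −0.28, −2.69 and −1.88 in P. The P values spread on both sides of the NP band.

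Eif4ebp2, which encodes the inhibitor 4E-BP2, was the only gene of the 10 with an unadjusted limma p below 0.05, and its P libraries held almost no reads. It lies on chromosome 10 at 61432497 to 61452669 (minus strand). This gene model ends 4006 bases short of the GENCODE vM21 3′ end, so reads from that stretch fall outside it. The shortest length that made its values whole was 1786 bases, beside 5784 annotated exon bases. The models of Eif4e, Eif4g2 and Eif4ebp1 also end short, by 2097, 235 and 1018 bases, and the effect on the levels was not tested. The level of Eif4ebp2 was 0.175, 3.02, 9.85 and 59.8 FPKM in NP and 0, 0.349, 0 and 0 FPKM in P, which rested on 1, 7, 128 and 811 recovered reads in NP and on 0, 2, 0 and 0 in P. These reads assume the shortest gene length that makes every value whole, as do those of Eif4ebp1, so that the true numbers may be whole multiples of them. NP replicate 4 alone held 82.1% of the summed NP level, and NP replicate 1, with a single read, fell below P replicate 2. The log2 fold change was −2.79 (SE 1.04, 95% interval −5.03 to −0.56, adjusted p = 0.421), and the 2-sided exact permutation test gave p = 0.0571. Over pooled reads the level per library number was 367 times higher in NP, with a counting interval of 101 to 3039 (exact binomial, 95%), and 86.8 times without NP replicate 4 (23.6 to 724). These intervals cover counting error only, since reads of amplified cDNA are not independent molecules, and they do not cover the spread between libraries. Limma's voom fit on the recovered reads gave a log2 fold change of −5.69 and an adjusted p = 0.0763 for Eif4ebp2, below the threshold of 0.1, where 1.74% of 14291 genes were called higher in NP. Without NP replicate 4 the log2 fold change on FPKM was −1.78 (limma adjusted p = 0.402). All NP values were above all P values only in the alternatives without NP replicate 1 or without P replicate 2.

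Eif4ebp1, which encodes 4E-BP1 (chromosome 8, 27260327 to 27275656, plus strand), was near the limit of detection. It measured 0, 1.57, 0.140 and 0 FPKM in NP and 3.90, 0, 0 and 0 FPKM in P. The recovered reads were 0, 2, 1 and 0 in NP and 18, 0, 0 and 0 in P. All reads of the P dataset were thus in 1 library, and the log2 fold change of 0.19 (SE 0.53, 95% interval −0.95 to 1.32) turned to −0.39 without it. Over pooled reads the level per library number in NP was 0.129 of that in P, with a counting interval of 0.0244 to 0.443 (exact binomial, 95%), which does not cover the spread between libraries.

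Set against Eif4e in the same library, the log2 ratio of Eif4ebp2 over Eif4e was −6.16, −4.10, −3.79 and −0.38 in NP and −6.59, −7.42, −5.86 and −7.00 in P. On this scale NP replicates 2 to 4 were above all P libraries, and NP replicate 1 was within the P range, where 3 of the P values reflect Eif4e and the added constant alone. With nothing added, which was computed after the values had been seen, Eif4ebp2 was 0.211%, 4.43%, 6.60% and 76.4% of the level of Eif4e in NP and 0, 0.152%, 0 and 0% in P. All NP values were then above all P values, the closest of them resting on 1 read in NP replicate 1 and 2 reads in P replicate 2. Between these libraries the order came from Eif4e, at 82.9 FPKM in NP replicate 1 and 230 FPKM in P replicate 2. Eif4ebp2 itself was lower in NP replicate 1, at 0.175 FPKM beside 0.349 FPKM. For Eif4ebp1 over Eif4e the log2 ratio was −7.04 to −4.75 among the NP libraries and −7.85 to −4.29 among the P libraries. Eif4e thus exceeded both 4E-BP genes in all 8 libraries.

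**Figure D3:**
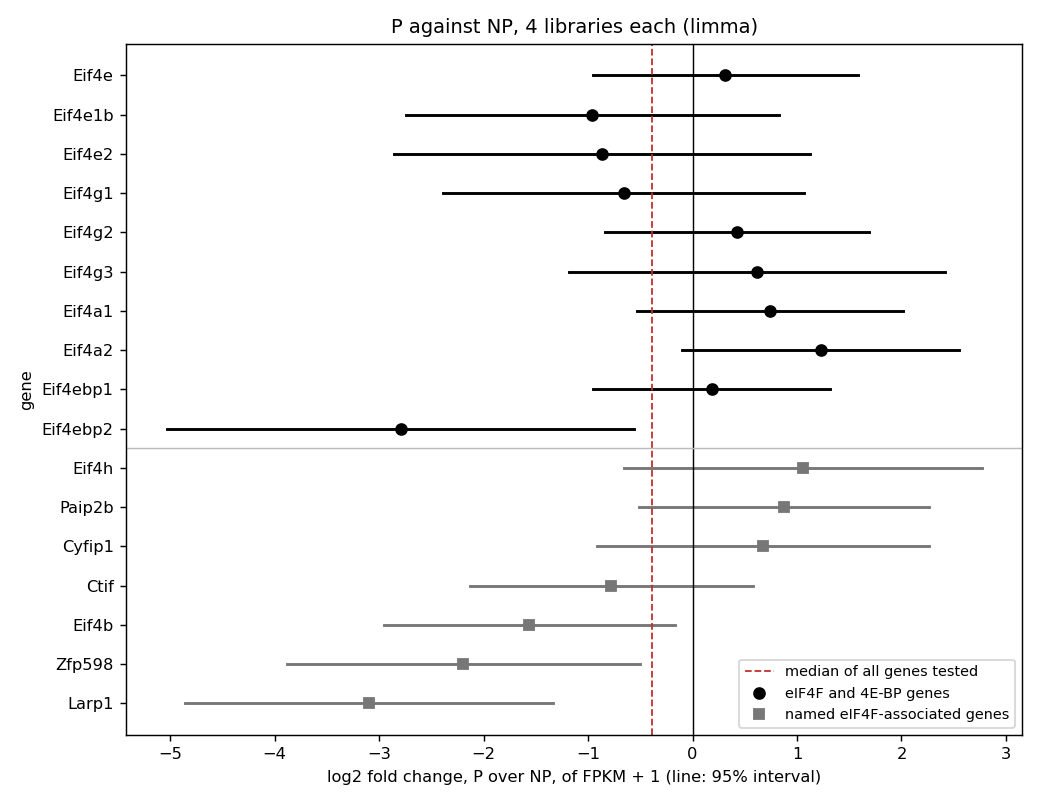
Log2 fold change of P over NP on FPKM + 1 (points) with its 95% interval (lines) for the 10 genes (circles) and 7 named eIF4F-associated genes (squares). The dashed line is the median of all genes tested, −0.39. The interval of Eif4ebp2, −5.03 to −0.56, does not reach 0, whereas those of the other 9 of the 10 genes do.

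Compared per length, the order of mean FPKM in NP was Eif4e1b, Eif4e, Eif4a1, Eif4g2, Eif4a2, Eif4ebp2, Eif4g1, Eif4e2, Eif4g3 and Eif4ebp1. In this order, the ranges of neighbours overlapped except between Eif4e1b and Eif4e and between Eif4g3 and Eif4ebp1. In P the order was Eif4e1b, Eif4a1, Eif4e, Eif4a2, Eif4g2, Eif4g1, Eif4g3, Eif4e2, Eif4ebp1 and Eif4ebp2, and the ranges of all neighbours overlapped. Eif4e1b stood at percentiles 96.6 to 99.4 of the genes tested in NP and 89.9 to 99.4 in P. For Eif4g1 the percentiles were 67.1 to 78.9 in NP and 61.1 to 87.1 in P.

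Fold changes of the group moved with the scaling between libraries. The median of all genes was −0.39 on FPKM as deposited, −0.02 after quantile normalization and 0.21 after scaling each library to one median. Relative to the median of all genes, 6, 6 and 8 of the 10 genes were higher under these scalings, in the same order. Distances from that median also moved, from 0.71 to 0.49 and 1.43 for Eif4e and from −0.57 to −0.92 and 0.17 for Eif4e1b. With libraries scaled to one median, Eif4e, Eif4g2, Eif4a1 and Eif4a2 had an unadjusted p below 0.05 on the P side, where 7.04% of all genes did, and the 4 P values of Eif4e, Eif4g2 and Eif4a2 were above all NP values, as for 5.04% of all genes. After quantile normalization Eif4a2 alone of the 10 genes met these criteria, with shares of 2.55% and 4.62% of all genes. Eif4a2 had a log2 fold change of 2.52 under the one and 1.57 under the other scaling, and its limma adjusted p was 0.419 and 0.731.

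**Figure D4:**
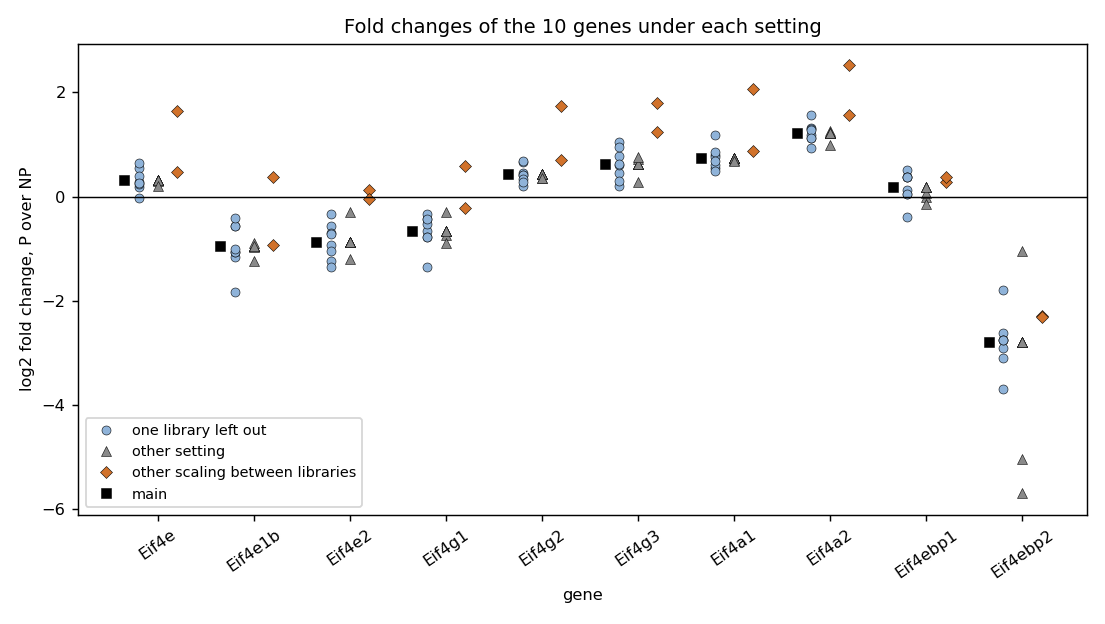
Log2 fold change of P over NP for the 10 genes (y axis) with the settings used in the text (black squares), with one library left out (blue circles), with another scaling between libraries (orange diamonds) and with other settings (grey triangles). Eif4a2 stays above 0 at 0.94 to 2.52 and Eif4ebp2 below 0 at −5.69 to −1.04, while Eif4e1b, Eif4e2 and Eif4g1 are above 0 once, with libraries scaled to one median.

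Of 27 genes listed as associated with eIF4F, 26 were in the table and all were tested. By limma, 0 were called, 3 had an unadjusted p below 0.05 on the NP side and 0 on the P side, where 9.47% and 0.476% of all genes tested were, and their median log2 fold change was −0.41, beside −0.39 for all genes. All NP values were above all P values in 2 of the 26, Larp1 and Ctif, beside 5.92% of all genes. Larp1, which binds the cap and the terminal oligopyrimidine motif of mRNAs, had the lowest fold change. It measured 18.3, 6.54, 10.2 and 11.3 FPKM in NP and 1.71, 0, 0.362 and 0 FPKM in P, so the datasets did not overlap. The log2 fold change of Larp1 was −3.10 (SE 0.82, 95% interval −4.86 to −1.34, adjusted p = 0.376), and the 2-sided exact permutation p was 0.0286, the smallest that 4 against 4 libraries can give. Larp1 passed the threshold in the voom fit (adjusted p = 0.0303) and without a trend in limma (adjusted p = 0.0949), both chosen for it after its values had been seen. Zfp598, a ubiquitin ligase of collided ribosomes that also works with 4EHP, measured 29.5 to 130 FPKM in NP and 3.70 to 32.6 FPKM in P, with a log2 fold change of −2.19 (SE 0.79). Eif4b, a cofactor of eIF4A, measured 87.7 to 193 FPKM in NP and 14.3 to 88.0 FPKM in P, with a log2 fold change of −1.56 (SE 0.65). The datasets of both genes overlapped through 1 library on each side.

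Ctif, a scaffold for initiation on mRNAs held by the nuclear cap-binding complex, was the other gene of this list without overlap, at 18.0 to 28.6 FPKM in NP and 9.98 to 16.1 FPKM in P. Its log2 fold change was −0.78 (SE 0.63), and 0.49 with every library scaled to one median. The highest fold changes were those of Eif4h, another cofactor of eIF4A, at 1.06 (SE 0.80), Paip2b, an inhibitor of poly(A)-binding protein, at 0.88 (SE 0.65), and Cyfip1, an eIF4E-binding partner of FMRP, at 0.67 (SE 0.74). P and NP overlapped in each of the latter 3.

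Because the poly(A) tail of oocyte mRNAs is set through short motifs before the 3′ end, the last 100 genomic bases at the 3′ end of each gene in the table were read from the GRCm38.p6 genome on the gene's strand. The cytoplasmic polyadenylation element, spelled TTTTAT or TTTTAAT, was found in 1 of the 10 genes, beside 17.8% of the 14292 genes tested. The polyadenylation signal, AATAAA or ATTAAA, was found in 6 of the 10 genes, beside 74.2% of all. These motifs do not overlap each other in the stretches shown, which run from 2 bases before the motif to the 3′ end and carry the motif in capitals. They are given for the gene with the highest mean level, both helicases and the one gene with the cytoplasmic element.
Eif4e1b (chr13:54788437-54788459, plus strand): taAATAAAcacttctggaacaaa
Eif4a1 (chr11:69666936-69666961, minus strand): tgAATAAAattacttggaaactgcct
Eif4a2 (chr16:23114117-23114136, plus strand): gaAATAAAaaaattaccaag
Eif4ebp1 (chr8:27275635-27275656, plus strand): taTTTTATgtatatgagtaatc
Eif4a1 and Eif4a2, the helicase genes, carried a polyadenylation signal 24 and 18 bases before the end. Eif4e, Eif4g3 and Eif4ebp2 had none of these letters in the window. The 3′ ends of Eif4e, Eif4g2, Eif4ebp1 and Eif4ebp2 in the table lay 2097, 235, 1018 and 4006 bases from those of the GENCODE vM21 annotation, so for these genes the window was not at the annotated 3′ end.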

How the data were processed

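The members and gene lists were chosen with earlier results of these data known. Per the labels and the study's methods, ribosomal RNA was removed from the pooled fractions, and cDNA was primed with random and oligo(dT) primers and amplified. The authors used Trim Galore 0.4.1 for trimming and HISAT2 2.0.5 for mapping to GRCm38, and deposited FPKM values per gene from Seqmonk, linear and without further scaling between libraries. Further deposited tables hold the authors' mean FPKM values, P/NP ratios and DESeq2 fold changes with p and FDR values, and were not used.

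Groups and replicate numbers came from sample titles. Genes whose mean FPKM exceeded 0.1 in P or NP entered a 2-sided test on log2(FPKM + 1) in limma 3.58.1 under R 4.3.3, with lmFit and a trend in eBayes, adjusted by Benjamini-Hochberg over all genes tested, with a threshold of 0.1. The pseudocount of 1 understates changes of low genes. The authors used DESeq2 on reads, whereas the table holds FPKM. Library numbers and whole reads were recovered from FPKM steps (tolerance 0.01, relative 2e-06) for 15584 of 15585 genes with a value above 0, by the annotated exon length for 6978 and a searched length of 100 to 30000 bases for 8606. Of the 10 members, 5 rest on a searched length. The limma script was tested on simulated data. No libraries were identical. Named genes were the 10 members and, of the 26 associated genes, those called, those without overlap, and the 3 highest and 3 lowest fold changes with a mean FPKM above 1. Eif4e3 was named as well, after its values had been seen, for its level beside the cap-binding genes. Alternatives were pseudocounts of 0.1 and 10, other filters, scalings, voom on recovered reads, a replicate block and leaving out each library.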

Additional observations from a re-analysis of the deposited data

Results flagged for a closer look

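Within a dataset of 4 libraries, a library was listed where its gap to the nearest other, on log2(FPKM + 1), as a share of the whole range exceeded Dixon's 95% critical value. Chance gives about 1 such case in 20, and 20 combinations of gene and dataset were examined. There were 4 cases. Eif4e1b in NP had its highest value in replicate 4, with a gap of 0.839 of the range. Eif4ebp1 had its highest value in NP in replicate 2, with a gap of 0.861 of the range and 2 recovered reads, and in P in replicate 1, with a gap of 1 and 18 reads. Eif4ebp2 in P had its only reads in replicate 2, with a gap of 1 and 2 reads.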

How the results depend on the processing

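Dropping the trend, changing the filter and adding a replicate block leave a fold change unchanged by construction. Of 169 fold changes of the 10 genes under the alternatives, those settings included, 162 kept their direction and 7 turned. The latter were 0.38 for Eif4e1b, 0.13 for Eif4e2 and 0.59 for Eif4g1 with libraries scaled to one median, −0.027 for Eif4e without P replicate 2 (−0.027 to 0.64 with a library left out), and for Eif4ebp1 −0.000167 with a pseudocount of 0.1, −0.14 in voom and −0.39 without P replicate 1 (−0.39 to 0.51). Ctif turned to 0.49 with one median. The count of genes called was 1 in voom on recovered reads (Eif4ebp2) and 0 in all other settings. At an unadjusted p below 0.05 the count, 1 as reported, was 2 without a filter on low values, 5 with one median and 2 without a trend in limma, and 1 to 2 with a library left out. It was 1 under quantile normalization and with a pseudocount of 10, where the gene was Eif4a2 in place of Eif4ebp2. The count without overlap, 0 as reported, was 1 after quantile normalization and 3 with one median. With a library left out it was 0 to 2, and no share of all genes was computed. Those were Eif4a2 without P replicate 3, Eif4a1 and Eif4ebp2 without P replicate 2, and Eif4e1b and Eif4g1 without P replicate 4. Of 63 differences between P and NP in log2 ratios of members, 62 moved by less than 1 SD pooled over both datasets. Among these, Eif4g2 over Eif4g1 went from 1.09 to 2.02 without P replicate 4, Eif4a2 over Eif4a1 from 0.48 to 0.89 without P replicate 3 and to 0.091 without P replicate 2, and Eif4ebp1 over Eif4e from −0.13 to 0.33, 0.40 and 0.12 without NP replicate 2, P replicate 2 and P replicate 4. Eif4ebp2 over Eif4e went from −3.11 to −5.35 with a pseudocount of 0.1. The associated genes with an unadjusted p below 0.05 on the NP side numbered 3, but 1 with one median and 1 without NP replicate 4. On the P side they numbered 0, but 7 of 26 with one median, where 7.04% of all genes tested were on that side. The cause of these differences was not tested. Over all genes, limma called 3, 0 with one median and 250 in voom.

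The study pooled NP and P from fractions of the same gradients, whereas the main limma fit and the permutation test took the libraries as unpaired. NP and P libraries share replicate numbers, but no source used here says that a number marks one gradient. After the mean of its dataset was taken from each library, the correlation between NP and P was 0.139, 0.0518, 0.251 and 0.155 at numbers 1 to 4, and at −0.135 to 0.136 for other pairs over 11374 genes, with 7 of 8 libraries correlating best with their own number. With a replicate block limma called 1 gene in place of 3, 0 of the 10 members were called, and Eif4ebp2 had an adjusted p of 0.328. Within each number, Eif4a1, Eif4a2 and Eif4g3 were higher in P in all 4, as for 2.2% of all genes tested, and Eif4ebp2 was higher in NP in all 4, as for 16.5%. Some of these differences were slight. At number 2, Eif4a1 was at 59.8 FPKM in P and 59.7 in NP, and Eif4g3 at 4.65 in P and 4.31 in NP. At number 1, Eif4ebp2 had 1 recovered read in NP and 0 in P.

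Eif4ebp1 rested on 0 to 18 recovered reads per library and Eif4ebp2 in P on 0 to 2.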
